A study of Drosophila melanogaster with 3 samples.

Results

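Neuronal ion channel and receptor genes were a set of 34 listed Drosophila melanogaster genes, 16 for channels that are gated mainly by voltage or calcium and 18 for transmitter receptors, out of 13945 protein-coding genes in the annotation. They were listed by symbol, with earlier results of these peaks known. Peaks of Combgap, a zinc-finger protein, were assigned to them in 2 ways: by a peak summit within 1 kb of any annotated transcription start site of the gene, and by a summit anywhere between the annotated ends of the gene, called the gene body here. The peaks came from chromatin immunoprecipitation and sequencing (ChIP-seq) of whole embryos aged 0 to 24 h and of mixed sex. The embryos were from a transgenic line that stably expressed cg, the gene for Combgap, fused at its C-terminal end to green fluorescent protein (GFP), and an antibody against GFP recovered the chromatin after sonication to 200 to 800 bp. The labels gave 3 biological replicates of 1 group and no other condition, so every comparison was between genes or summits and none was between treatments.

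The embryos were used whole, and neurons were not separated from other cells. A site bound strongly in few cells and a site bound weakly in many cells cannot be told apart. The peaks kept by the irreproducible discovery rate (IDR) step, which selects peaks that recur between replicates, had 7913 summits. Several summits can lie in 1 peak, and merging overlapping or adjoining peak intervals left 6030 regions. Rank 1 was the summit of highest signal in this thresholded list. The list called on the pooled alignments and each replicate list held 30000 peaks, an equal number that looks like a cap. The read depth was unknown, and all replicates shared 1 control alignment, so replicate ranks are not fully independent.

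Voltage-gated channels open when the membrane potential changes: sodium and calcium channels drive and shape depolarization, and potassium channels end it and set its frequency. Transmitter receptors of the ligand-gated kind are ion channels opened by acetylcholine, glutamate or GABA at synapses. In Drosophila, acetylcholine is the main fast excitatory transmitter of the central nervous system and glutamate that of the neuromuscular junction. Combgap is known from this species as a protein that binds GT-rich elements, and GT repeats at the summits are therefore described with the peaks.

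The sequences under the strongest summits of these genes illustrate that repeats could lie at a summit, beside it or nowhere in its immediate surroundings. They are the dm6 reference from the RefSeq copy of the release 6 assembly, plus strand, 5′ to 3′, with the summit in the middle of each window. Capitals mark unbroken alternations of G and T, or of C and A on the printed strand, of at least 6 bases. The first 4 windows were those of the strongest start-site summits outside the right arm of chromosome 2.
Shal, chr3L:19584073-19584133, rank 2949: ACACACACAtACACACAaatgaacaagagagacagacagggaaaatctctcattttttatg
nAChRalpha5, chr2L:14040416-14040444, rank 4707: taaGTGTGTGcctgttgtctgtcgctaac
Shal, chr3L:19584291-19584319, rank 4968: ttacacttctcgcctcttacacttttccc
SK, chrX:5340244-5340272, rank 5758: gcacaaacaacactaacggaaacatcaac
The next 4 windows were those of the strongest other gene-body summits outside that arm.
nAChRalpha5, chr2L:14050115-14050175, rank 2421: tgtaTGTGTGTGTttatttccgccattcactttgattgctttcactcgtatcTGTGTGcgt
nAChRalpha5, chr2L:14045984-14046044, rank 3161: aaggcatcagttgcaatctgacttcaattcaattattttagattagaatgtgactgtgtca
nAChRalpha6, chr2L:9882748-9882808, rank 3218: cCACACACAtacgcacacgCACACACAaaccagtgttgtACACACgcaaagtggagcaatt
Ca-alpha1T, chrX:6104920-6104948, rank 3361: gttacatttcgcactgcttgtctgtgtag
The windows were 61 or 29 bases long, so their counts of capitals are not directly comparable. The nAChRalpha6 window held 22 capital bases of 61, the most of the 8, and the first Shal window held 16 of 61. The windows at SK, at Ca-alpha1T and at the second Shal summit, of 29 bases each, and at the second intronic nAChRalpha5 summit, of 61, held none. GTGTGT or its complement ACACAC nevertheless lay within 100 bp of these summits, except at the second Shal summit, which had no match.

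A start-site peak was found at 10 of the 34 genes (29.4%), beside 22.9% of all protein-coding genes. Of these, 8 were among the 16 channels and 2 among the 18 receptors (11.1%). In the gene body, 18 of the 34 genes (52.9%) had a summit, beside 17.9% of all protein-coding genes, and they were 13 of 16 channels (81.2%) and 5 of 18 receptors (27.8%). The remaining 16 genes had neither, and 13 of those were receptors. No test was made of the difference between the classes. Among the upper 3956 of the 7913 peaks by signal, start-site peaks were left at 3 genes, all channels (Shal, KCNQ and NaCP60E), beside 16.3% of all protein-coding genes. Gene-body summits were left there at 4 channels and 4 receptors, beside 12.5% of all protein-coding genes, an equal number of each class.

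**Figure D1:**
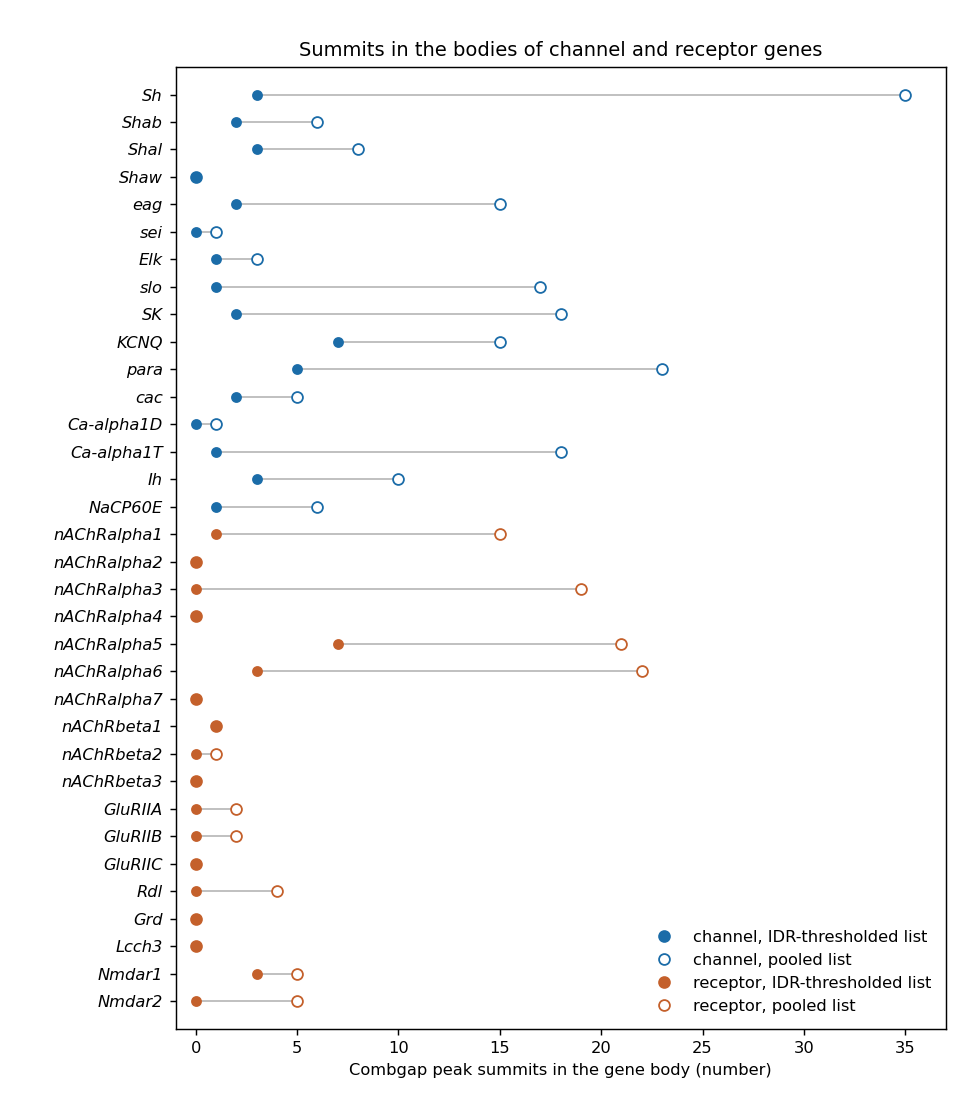
Number of Combgap peak summits between the annotated ends of each of the 34 genes (x axis), with filled points for the IDR-thresholded list and open points for the list called on the pooled alignments. Channels are in blue and receptors in orange; KCNQ and nAChRalpha5 have 7 thresholded summits each, whereas nAChRalpha3 has 19 pooled summits and none that passed the threshold.

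Channels and receptors differed in size and in number of start sites, both of which were related to having a peak. The median gene length was 50.9 kb for the channels, 15.5 kb for the receptors and 2.17 kb for all protein-coding genes. Of all genes, 6.42% of those under 5 kb, 46.1% of those from 5 to 20 kb, 65.7% of those from 20 to 50 kb and 70.7% of those over 50 kb had a gene-body summit. Within these classes the channels gave 1 of 3, 4 of 5 and 8 of 8 from 5 kb upward, with no channel gene under 5 kb. The receptors gave 0 of 5, 2 of 5, 0 of 3 and 3 of 5. Summing the share of each gene's length class over the genes gave 10.3 channels, beside 13 counted, and 8.13 receptors, beside 5 counted. For all 34 genes that sum was 18.5 and 18 were counted, close to the share that genes of the same length classes had.

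**Figure D2:**
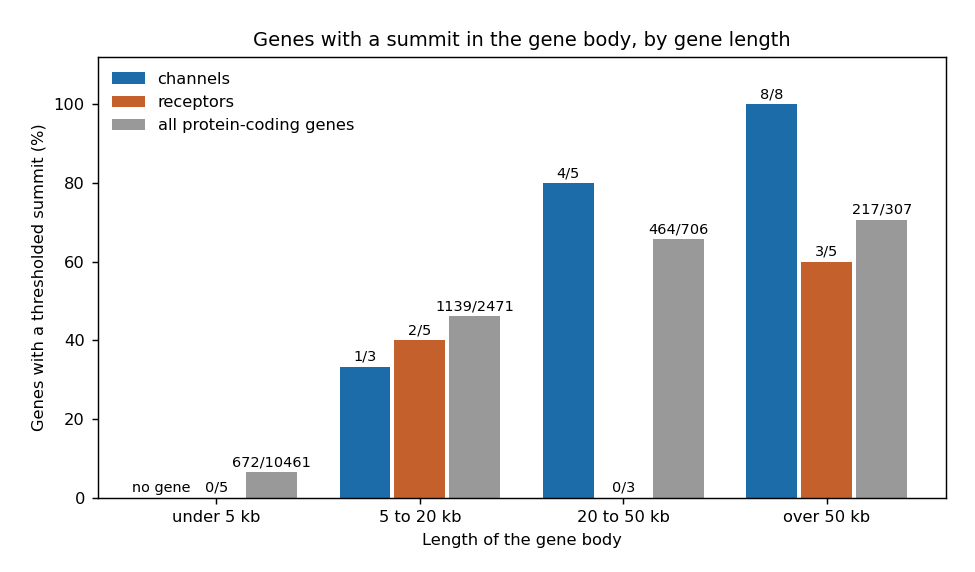
Share of genes with a thresholded summit in the gene body (y axis, %, from 0) by length class (x axis), for channels in blue, receptors in orange and all protein-coding genes in grey. The numbers above the bars are genes with a summit over genes in the class; all 8 channel genes over 50 kb have a summit, as do 3 of 5 receptor genes of that length.

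For the start sites, the shares over all genes were 15.0% for genes with 1 start site, 35.5% with 2, 62.5% with 3 to 4 and 83.2% with 5 or more. Of the members in those classes, 4 of 19, 2 of 7, 3 of 5 and 1 of 3 had a start-site peak. The shares summed to 6.89 channels, where 8 were counted, to 4.06 receptors, where 2 were counted, and to 10.9 of all 34 genes, where 10 were counted. Shares by length class summed higher, to 8.55 channels, 7.45 receptors and 16.0 of all 34 genes. Receptors mostly had a single start site: 15 of 18 did, and 2 of these 15 had a start-site peak. Channels with 1 start site had a peak in 2 of 4 cases, Shal and Elk.

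Summits per unit length were fewer in these genes than in protein-coding genes as a whole. The channel bodies held 33 summits in 804.6 kb, or 0.41 per 10 kb, and the receptor bodies 15 in 530.4 kb, or 0.283 per 10 kb. All protein-coding genes together held 0.681 per 10 kb. Among the upper 3956 peaks the order of the classes turned, with 0.0746 in channels and 0.0943 in receptors, beside 0.353 in all genes. That order rested on few summits, in 4 channels and 4 receptors, with 3 in KCNQ and 2 in nAChRalpha5. In the pooled list the densities were 2.25, 1.83 and 2.42. Among genes over 50 kb the density was 0.302 in channels, 0.288 in receptors and 0.433 in all genes. Of the 11 summits in receptor genes of that length, 7 lay in nAChRalpha5 alone, and nAChRalpha3 and nAChRalpha4 had none.

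Peaks at these genes ranked low in the list. The 10 genes with a start-site peak had a median best rank of 5790 (2851 to 7493), whereas the 3192 protein-coding genes with one had a median of 2080. The 49 distinct summits at the members, in start sites and bodies, lay in 44 merged regions. Their median rank was 5270 beside 3960 for the whole list. For summits beyond 1 kb of any start site, which rank lower in general, it was 5240 (n = 30) beside 4850, and 6 of the 30 lay in the upper 3956, beside 37.3% of all such summits. Only 12 of the 49 (24.5%) lay in its upper 3956 peaks, and 1 lay in the top 1000 (2.04%, beside 12.6% of all summits). All 49 overlapped a peak in each of the 3 replicate lists by at least 1 bp, which the IDR step favours.

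The potassium channels gave 5 of the 10 start-site peaks, counting the calcium-activated SK. Shal, which carries the fast-inactivating A-type current of nerve cell bodies and dendrites, had the highest rank of the 5. Its summit of rank 2949 lay in an intron, 465 bp downstream of its single start site, in a gene at 19566851 to 19584568 on chromosome 3L (minus strand). It ranked 3153, 3489 and 2938 in replicates 1, 2 and 3, or 3190 ± 278 (SD, n = 3), and in replicate 2 the start-site summit of KCNQ ranked above it. A second summit of rank 4968 stood 263 bp from the start, and another, of rank 4770, in an intron at 8.8 kb.

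KCNQ, the channel of the slow M-type current, had the most summits of any channel gene, 8 in all. Those of ranks 2282 and 3845 lay in the same peak interval. Its start-site summit lay upstream of the gene, 218 bp from the start (2R, 10192612), with rank 3348. In the replicates it ranked 3848, 3196 and 3432, or 3490 ± 330 (SD, n = 3). The strongest summit at any of the 34 genes was inside KCNQ, with rank 994 in the thresholded list and 1048, 890 and 1106 in the replicates. That summit stood 27 bp from the start site of mlt, a gene nested in KCNQ, in the 5′ UTR of mlt and 3734 bp from the nearest start site of KCNQ itself. The summits of ranks 2282 and 3845 were also nearer to mlt than to a start of KCNQ, so the peaks cannot be given to one of the 2 genes by position.

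The other potassium channels with start-site peaks ranked lower. Elk, a channel of the ether-a-go-go family, had its summit 66 bp downstream of the start in an intron (2R, 17874005), with rank 6058 and replicate ranks 7472, 5527 and 6133. SK, a small-conductance channel opened by calcium, had its summit 22 bp downstream of a start in the 5′ UTR (X, 5340258), with rank 5758 and replicate ranks 5731, 6317 and 6508. Shab, the main delayed rectifier, had its summit 122 bp downstream of an internal start in an intron (3L, 2896865), with rank 7288 and replicate ranks 6989, 9189 and 7408. SK ranked above Shab in each replicate, whereas the ranks of Elk overlapped those of both. SK and Shab each had 1 further summit in an intron, with ranks 7012 and 6878.

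Sodium and calcium channels gave 2 more start-site peaks, and the pacemaker channel gave 1. NaCP60E, a member of the sodium channel family, had the strongest start-site summit of all 34 genes, 413 bp downstream of a start in an intron (2R, 24892027). It had rank 2851 and replicate ranks 3043, 3081 and 2867, or 3000 ± 114 (SD, n = 3). It ranked above the Shal summit in each replicate. The presynaptic calcium channel gene cac had summits 624 bp and 830 bp upstream of an internal start, in an intron of the gene (X, 11981800 and 11982006). The stronger had rank 5822 and replicate ranks 5602, 7744 and 6259, and the other rank 7232. Ih, the channel opened by hyperpolarization, had a summit 905 bp downstream of a start in the 5′ UTR (2R, 14277035), with rank 6841 and replicate ranks 7244, 6191 and 7771, and 2 intronic summits of ranks 5198 and 7211. In replicate 1 the overlapping peak of rank 7244 had its own summit beyond 1 kb of any Ih start, and the best start-site rank was 13634.

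Only 2 receptor genes had a start-site peak. nAChRalpha5, a subunit of the nicotinic acetylcholine receptor, had its stronger one 260 bp downstream of the start in the 5′ UTR, with rank 4707 and replicate ranks 4348, 5759 and 5336, or 5150 ± 724 (SD, n = 3). The second, of rank 7482, was 463 bp from the start. Nmdar1, the obligatory subunit of the NMDA receptor, had a summit 204 bp downstream of its start in an intron (3R, 5523124), which ranked 7493 and stood 4 bp from the start of the overlapping gene CG43845. It ranked 7383, 15380 and 7946 in the replicates, 10200 ± 4460 (SD, n = 3), and replicate 2 stood apart. Matching took the nearest summit, and the replicate 2 list also held a summit of rank 11564 within 1 kb of the start. In the pooled list 25 of the 34 genes (73.5%) had a start-site summit, beside 42.7% of all protein-coding genes. These were 16 of 16 channels and 9 of 18 receptors. By chromosome, the thresholded start-site peaks lay at 4 of 5 member genes on 2R, where 22.2% of all protein-coding genes had one, and at 2 of 10 on X, where 30.1% had one. They lay at 2 of 6 on 3L (22.6% of all), 1 of 8 on 2L (19.5%) and 1 of 5 on 3R (21.6%).

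**Figure D3:**
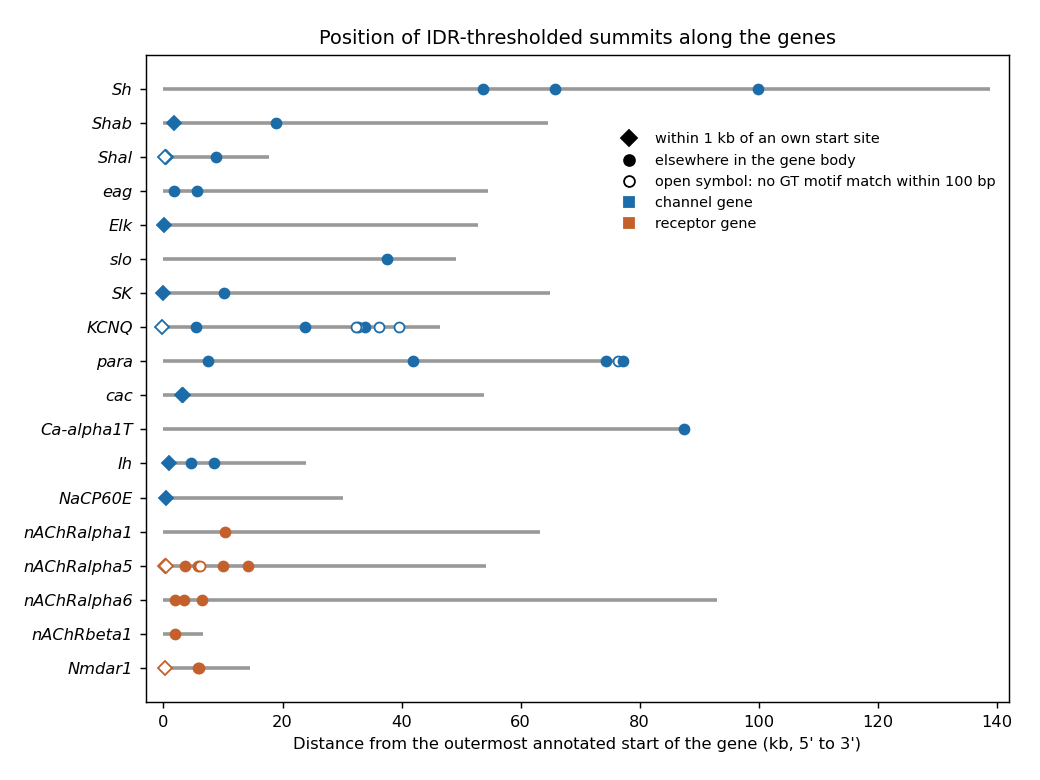
Positions of the thresholded summits (symbols) along the 18 genes with one, drawn from the outermost annotated start (x axis, kb). Diamonds lie within 1 kb of a start site of the gene, circles elsewhere in the gene body, and open symbols have no GTGTGT or ACACAC within 100 bp. The grey lines show gene length, up to 138.9 kb for Sh; the summits of para lie mostly near its 3′ end.

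Of the 48 summits inside the gene bodies, 26 were nearest to a start site of their own gene and 22 nearer to that of another gene, 7 of them within 1 kb of it. Introns held 36 of these 48 (75.0%), beside 67.9% of the 6117 summits in any protein-coding gene body. The 5′ UTR held 6 (12.5%, beside 25.8%) and the 3′ UTR held 5 (10.4%, beside 2.99%). No summit lay in a coding exon, where only 1.73% of the 6117 lay. The 3′ UTR summits belonged to 3 positions in para, 1 in Ca-alpha1T and 1 in the stretch shared by KCNQ and mlt, so they were few genes.

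The genes with gene-body summits but no start-site peak were 5 channels and 3 receptors. Ca-alpha1T, the low-voltage-activated calcium channel, had 1 summit of rank 3361 in its 3′ UTR, 87.5 kb from its start (X, 6104934), with replicate ranks 3434, 3363 and 3859. para, the gene of the sodium channel behind the action potential, had 5 summits. The strongest had rank 4005 and replicate ranks 3682, 5293 and 4691, in the 3′ UTR, and another of rank 4914 stood 298 bp from the start of the nested gene Cnx14D. eag, a slowly activating potassium channel, had an intronic summit of rank 4301 at 5.7 kb with replicate ranks 4306, 4451 and 5113, and a second of rank 7172 that ranked 7953, 9862 and 6506. Sh, the A-type potassium channel of axons and muscle, had 3 intronic summits in its 138.9 kb, of which the strongest had rank 4857 and replicate ranks 5163, 5086 and 5251. The calcium-activated potassium channel gene slo had a single intronic summit of rank 7398 and replicate ranks 8159, 6394 and 8214.

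The receptor genes with gene-body summits were mostly nicotinic. nAChRalpha5 had 5 summits beyond the start, of which the strongest, 9975 bp from the start, had rank 2421 and replicate ranks 2388, 2895 and 2497, or 2590 ± 267 (SD, n = 3). Of these 5, 4 were nearer to the start of NimC4, a nested gene, than to the start of nAChRalpha5. nAChRalpha6, the spinosad-sensitive subunit, had 3 intronic summits, all nearest to its own start. The strongest had rank 3218 and replicate ranks 3316, 3253 and 3584, and the others ranks 4492 and 7181. nAChRbeta1 had 1 summit of rank 3389 in an intron, 1976 bp from its start, with replicate ranks 3313, 4281 and 3660. nAChRalpha1 had 1, of rank 5041 at 10.3 kb, with replicate ranks 5517, 5813 and 4970. Nmdar1 had 2 further summits, of ranks 3415 and 7229, that stood 215 bp and 432 bp from the start of Itpr, the overlapping inositol trisphosphate receptor gene.

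**Figure D4:**
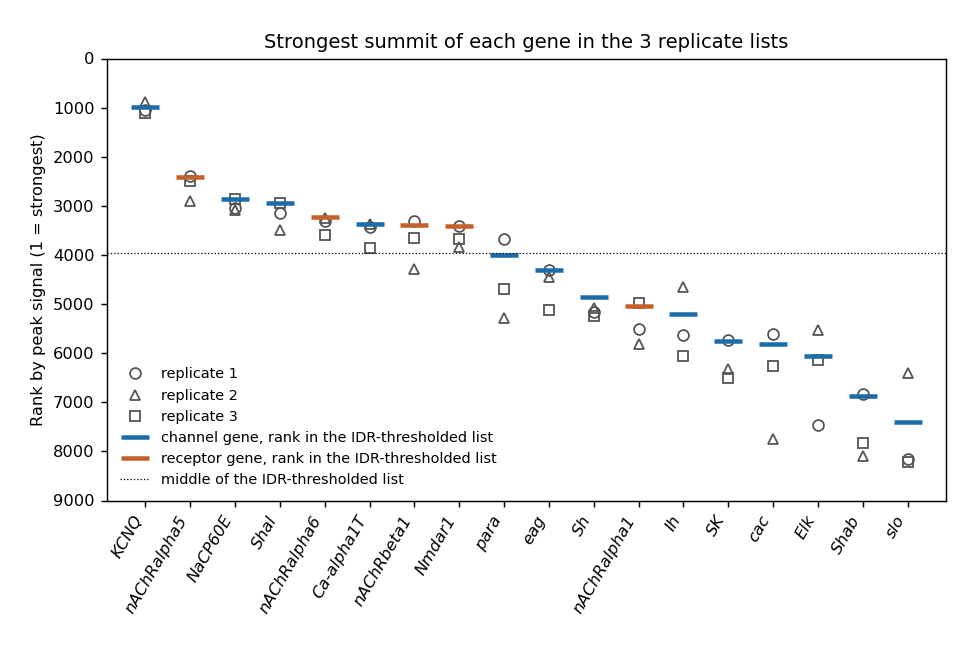
Signal rank (y axis, reversed, 1 is the strongest) of the strongest summit of each of the 18 genes with a thresholded summit, in replicates 1, 2 and 3 (open symbols) and in the thresholded list (coloured bars, blue for channels and orange for receptors). The dotted line is the middle of the thresholded list at 3956; 8 genes lie above it, from KCNQ at 994 to nAChRbeta1 at 3389 and Nmdar1 at 3415, and slo is lowest at 7398.

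In the replicate lists of 30000 peaks, 25.7 ± 1.15 (SD, n = 3) of the 34 genes had a start-site summit, beside 43.0%, 43.3% and 43.2% of all protein-coding genes in replicates 1, 2 and 3. Of these, 15.3 ± 0.577 were channels and 10.3 ± 1.53 receptors. Gene-body summits were found at 28.0 ± 1.0 genes, beside 31.8%, 33.3% and 32.8% of all genes, with all 16 channels in each replicate and 12.0 ± 1.0 receptors. In the pooled list they were found at 26 genes (76.5%), beside 31.9% of all protein-coding genes. Most channel genes thus had a summit in every one of these longer lists, whereas 4 receptor genes had none in any of them. The classes differed in length and number of start sites, and shares by those were not computed for these lists. All of these lists reach far below the weakest thresholded peaks.

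The 1 kb limit divided neighbours in distance. The nearest thresholded summit stood at 624 bp for cac and 905 bp for Ih, inside the limit. Outside it were sei at 1075 bp, para at 1507 bp, eag at 1781 bp, Sh at 1801 bp, nAChRalpha6 at 1857 bp and nAChRbeta1 at 1976 bp. The count of start-site peaks therefore depended on the limit: at 5 kb it was 19, 13 of them channels and 6 receptors, beside 41.6% of all protein-coding genes.

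GTGTGT, or its complement ACACAC, lay within 100 bp of 39 of the 49 summits (79.6%), beside 63.3% of all 7913. The share was 27 of 34 for channels and 12 of 15 for receptors, which are close to each other. It was 68.4% (13 of 19) for member summits within 1 kb of any gene's start, beside 59.8% of all such summits, and 86.7% (26 of 30) for those farther away, beside 67.9%. Intronic summits of the members had it in 83.3% of cases, beside 65.8%. Those in the lower part of the signal list had it in 81.1% (30 of 37), beside 56.2%, and those in the upper part in 75.0% (9 of 12), beside 70.5%. A run of 5 GT units was found at 51.0%, beside 29.5%. On the X chromosome 14 of 15 member summits had the motif, beside 70.4% of X summits, and on the autosomes 25 of 34 (73.5%), beside 61.4%. Summits at 1 gene share their surroundings, and no test was made.

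Of 4 other short motifs, 2 had shares near the background. The other 2, which lay at few of all summits, were found at no member summit. GAGAGA lay within 100 bp of 26.5% of the member summits, beside 21.8% of all, and CACGTG of 4.08%, beside 4.01%. GCCATTTT, which holds the core of the site of the Polycomb recruiter Pleiohomeotic, lay at none of the 49, beside 2.07% of all, and TTATTTAT also at none, beside 3.99%. All motifs were read on either strand, and a match describes letters, not a bound site.

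GT runs were denser in these gene bodies than in all genes, and a smaller share of them lay at a summit. Runs of at least 5 units numbered 386 in the 34 gene bodies, 2.89 per 10 kb, beside 1.07 for all protein-coding genes and 1.48 for those over 50 kb. Of these 386 runs, 41 (10.6%) lay within 250 bp of a thresholded summit, beside 27.6% of the runs of all genes and 15.8% for genes over 50 kb. On the X chromosome the density of runs was 3.6 per 10 kb in 10 member genes, 1.91 in all genes and 2.71 in all genes over 50 kb. On the autosomes it was 2.28 in 24 member genes, 0.87 in all genes and 1.14 in all genes over 50 kb. Over all chromosomes, 31 of 238 runs in channel genes lay within 250 bp of a thresholded summit, and 10 of 148 (6.76%) in receptor genes. Of the 16 genes without a thresholded summit, 10 held no run, and nAChRalpha3 with 48 and Rdl with 15 held 63 of their 69. nAChRalpha4 held none in 80.8 kb. Sh held 62 runs, of which 5 lay near a summit. Overlapping genes counted a run in each, and this comparison was chosen after values had been seen.

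The 16 genes without a thresholded summit included 3 channels. Shaw, a potassium channel gene, was found in the pooled list at rank 18972, sei, the ERG-type potassium channel, at 14685 and Ca-alpha1D, the L-type calcium channel, at 16519. Of the nicotinic subunits, nAChRbeta2 had a best pooled rank of 9099, nAChRalpha3 of 9323, nAChRbeta3 of 12647 and nAChRalpha7 of 27673. For the muscle glutamate receptor subunits GluRIIA and GluRIIB it was 13565 and 16367, for the GABA receptor Rdl 9513 and for Nmdar2 8685. No pooled-list summit was found at nAChRalpha2, nAChRalpha4, GluRIIC, Grd or Lcch3, of which 4, all but nAChRalpha2, also had none in any replicate list. The nearest thresholded summit to a start of nAChRalpha4 was 258032 bp away. A peak not found at this unknown depth is not shown to be absent.

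A further list held 86 genes of channels, auxiliary subunits, receptors, and transmitter synthesis and transport. Of these, 15 (17.4%) had a start-site peak and 17 (19.8%) a gene-body summit, beside the 22.9% and 17.9% of all genes. The shares of their length classes summed to 37.7 genes with a gene-body summit, where 17 were counted. The auxiliary subunits had 4 of 13: Ca-beta, a calcium channel subunit, with rank 2464, Hk, a Shaker subunit, with 6301, and tipE and Teh2, sodium channel subunits that shared 1 summit of rank 6966. Of 10 other potassium and cyclic nucleotide channels 1 had one, Irk1 at 6390, and of 13 TRP channels 1, Trpm at 625. Among 14 other ligand-gated channels GluClalpha had one at 4421. G-protein coupled transmitter receptors had 6 of 20, led by DopEcR at 1421, mAChR-A at 1467 and 5-HT7 at 2452. Genes of transmitter synthesis and transport had 2 of 16, DAT at 2570 and Vmat at 5659. Trpm, DopEcR, mAChR-A, 5-HT7, Ca-beta and DAT each ranked above every start-site summit of the 34 genes. Over the 86 genes, the shares of the start-site classes summed to 22.3, where 15 genes were counted.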

How the data were processed

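The peak lists were deposited by the authors on dm6: 1 for each of 3 replicates, 1 for all replicates pooled, and 1 that IDR derived from these. Per the deposited text listings, all used 1 shared control alignment. Not given in the sources used here are the peak caller, its version, the IDR threshold and the read depth, so no precision from depth could be stated. The signal values were deposited by the authors' peak caller against the control and served only as ranks within a list. For each peak the authors deposited a −log10 q-value, which was 4.35 throughout the thresholded list and could not order it. Summit positions were read from the deposited offsets in bp from the peak start.

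Genes and start sites came from Ensembl release 115 (BDGP 6.54), sequence from the RefSeq release 6 assembly, the same as dm6. Computing used Python 3.11.15, numpy 2.4.6, pandas 2.3.3 and matplotlib 3.10.9. A replicate peak was matched by an overlap of 1 bp, and where several overlapped the one with the nearest summit was taken. Replicates were compared as ranks, and an SD is over the 3 replicates. Named were every member, with the strongest start-site or gene-body summit, and the 3 highest start-site genes of each list of other genes. Of the listed symbols of other genes, 3 had been renamed and were matched to current ones. The members and lists were chosen with earlier results of these data known, and the GT runs in gene bodies and 2 alternatives were chosen after values were seen. No test was made, because the design held 1 group. The counting of summits at genes and the reading of GT repeats were tested on planted summits and simulated sequence. Other steps were not tested in that way. Alternatives were other distances, lists, signal cuts, replicate support and motif windows.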

Additional observations from a re-analysis of the deposited data

How the results depend on the processing

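No paired analysis was possible because the labels gave 1 group only. The number of members with a start-site peak was 10 and moved to 19 at 5 kb (13 channels, 6 receptors). It was 25 in the pooled list (16 and 9) and 3 among the upper 3956 peaks (3 and 0). It was 3 (3 and 0) among summits whose peak interval overlapped a top-5000 peak of every replicate. That rule did not require the summit itself to rank in the top 5000 of a replicate. With that top-5000 rule kept and 1 replicate left out in turn, the number was again 3 to 3 (3 to 3 channels, 0 to 0 receptors). The thresholded list itself still came from all 3 replicates. The gene-body count of 18 moved to 8 in the upper 3956 peaks and 8 with top-5000 support, with 4 channels and 4 receptors in both, and was 8 to 9 under that rule with 1 replicate left out (4 to 5 channels, 4 to 4 receptors). Receptors with gene-body summits were 11 in the pooled list and 3 where the own start was nearest. Channel summits per 10 kb were 2.25 in the pooled list, 0.0746 in the upper 3956, 0.087 with top-5000 support, 0.0994 to 0.0994 under that rule with 1 replicate left out, 0.249 beyond 1 kb of any start and 0.236 with the own start nearest. For receptors they were 1.83, 0.0943, 0.113, 0.113 to 0.113 and, with the own start nearest, 0.132. Channels were denser than receptors in the full list, but receptors were denser in the upper 3956 and under the top-5000 rule, where each class held few summits. A run of 5 GT units gave 51.0% of member summits and 29.5% of all. The 500 bp limit, merged regions, outermost starts and leaving out SK kept the counts of genes within 1.5 times. The cause of the shifts was not tested. Depth is unknown, so a weak or missing peak cannot be read as lack of binding.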
